A study of Homo sapiens with 14 samples.

Results

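The genes described here are read as output of the ERK branch of MAP kinase signalling. They comprise the phosphatase genes DUSP1, DUSP2, DUSP4, DUSP5 and DUSP6, the Sprouty genes SPRY1 and SPRY2, and the ETS factor genes ETV4 and ETV5. Members were all probe sets whose single platform symbol was one of these 9 genes. They were 15 of the 22283 probe sets of the array, and 9 of 11963 genes with a single symbol. Of the 15, 12 probe sets of 8 genes passed a filter on low signal and were tested.

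The arrays came from Kasumi-1 cells, a human leukaemia line of myeloid origin with a fusion of RUNX1 (also AML1) and RUNX1T1 (also ETO), called AML1-ETO. RNA of 14 samples was measured on single-colour oligonucleotide arrays after 96 h. Cells received siRNA to AML1-ETO, or to luciferase as a control, either with a lipid reagent (Biorad siLentFect, 240 nM, 3 and 3 arrays) or by Amaxa nucleofection, an electrical transfection (1.5 µM, 3 and 2 arrays). Further references were 1 array of cells nucleofected with no siRNA added and 2 arrays of untransfected cells. Dose and delivery method changed together and cannot be told apart. All groups came from the 1 line, and nothing in the labels says that replicates were separate cultures, so the spread behind each p-value may be technical.

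ERK is the last kinase of a cascade that runs from growth factor receptors through RAS, RAF and MEK. Active ERK induces the genes of its own inhibitors. The dual specificity phosphatases encoded by DUSP genes remove the activating phosphates from MAP kinases, Sprouty proteins dampen signalling from receptors to RAS and RAF, and ETV4 and ETV5 are transcription factors of the PEA3 group whose transcripts follow ERK activity. In myeloid leukaemia cells the pathway lies downstream of receptors such as KIT and FLT3, and Kasumi-1 is known to carry an activating KIT mutation.

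Promoter windows were available for 5 of the 9 genes, as 8 windows from RefSeq on build GRCh38.p14. The DUSP6 window is shown because DUSP6 was the gene that passed the test, and the DUSP1 window because that gene is another feedback phosphatase and did not pass. Each holds the 250 bases before the annotated start, written 5′ to 3′ on the minus strand, at chr12:89352502-89352751 for DUSP6 and chr5:172771196-172771445 for DUSP1. Capitals mark GGAA, the core of the ETS factor motif, in the DUSP6 window and TGACG, the core of the cyclic AMP response element, in the DUSP1 window, on either strand.
DUSP6: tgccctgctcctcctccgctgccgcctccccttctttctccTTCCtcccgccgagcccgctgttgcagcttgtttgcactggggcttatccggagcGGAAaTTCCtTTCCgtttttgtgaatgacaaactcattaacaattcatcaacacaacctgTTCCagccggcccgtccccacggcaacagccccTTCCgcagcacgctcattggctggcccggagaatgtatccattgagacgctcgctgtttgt
DUSP1: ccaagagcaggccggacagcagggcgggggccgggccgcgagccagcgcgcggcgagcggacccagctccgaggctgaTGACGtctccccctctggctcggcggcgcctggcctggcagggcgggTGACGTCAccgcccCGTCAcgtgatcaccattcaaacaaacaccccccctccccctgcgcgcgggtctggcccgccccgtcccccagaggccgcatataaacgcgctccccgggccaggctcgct
The DUSP6 window held 6 matches to GGAA, where the median over 35116 windows of the same length was 3 and 92.7% held at least 1. It held no match to TGTGGT, the motif of RUNX factors, which 11% of windows held, and none to TGACG, which 21.2% held. The DUSP1 window held 4 matches to TGACG, of which 2, on opposite strands and overlapping, made up the palindrome TGACGTCA, found in 1.65% of windows, and no match to GGAA. The remaining windows held 4 matches to GGAA for DUSP2, 5 and 4 for SPRY1, and 4, 4 and 3 for SPRY2. None of the 8 held TGTGGT, the AP-1 motif TGANTCA (6.57% of all windows) or the CArG box of serum response factor (1.16%). These matches describe the letters of the windows and are not binding sites measured here.

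The effect of the siRNA on its target was checked in RUNX1T1, the ETO part of the fusion. Its brightest probe set had a signal of 556 ± 14.4 (SD, n = 3) with luciferase and 443 ± 52.9 (SD, n = 3) with AML1-ETO siRNA, both by lipid, and 704 ± 83.6 (SD, n = 2) and 299 ± 41.7 (SD, n = 3) by nucleofection. The log2 difference as the mean of both methods was −0.79 (SE 0.10, limma adjusted p = 6.33e-05 over the 4 RUNX1T1 probe sets). By lipid alone it was −0.34 and did not pass (limma adjusted p = 0.0578), and by nucleofection alone it was −1.24 (limma adjusted p = 4.01e-05). The methods differed by 0.90 (SE 0.20, limma adjusted p = 0.00438). By lipid another of the 4 passed, at −0.73 (limma adjusted p = 0.00625), while 1 of the 4 passed in no comparison, at −0.22 in the mean (limma adjusted p = 0.109). Every array had the same mean signal, 138.5, set by the authors, and between 38.4% and 44.3% of its probe sets lay below 20. Of the markers of blood precursors, 7 of 8 on the array had a median signal above 20, with ANPEP the exception. Markers of other cells were not all dim. Medians lay below 20 for 2 of 6 lymphoid markers (CD3D and CD79B), 1 of 2 erythroid markers (ALAS2) and 4 of 8 markers of cells outside the blood (ALB, APOA1, KRT19 and COL1A2). Per array the blood precursor markers summed to 7240 to 9880, the lymphoid ones to 100 to 206, the erythroid ones to 41.3 to 72.3 and those from outside the blood to 227 to 447. The lymphoid sum was 200 and 206 on the luciferase nucleofection arrays and 138 to 178 on the AML1-ETO ones, and its part in the results was not tested.

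The main question was whether these genes changed when AML1-ETO was targeted. DUSP6, which encodes the cytoplasmic phosphatase specific for ERK, was the only member to pass the test. It passed as the mean of both methods, close to the threshold, and in neither method alone. Signals are the deposited MAS5 intensities, on a linear scale, of probe set 208891_at, the brightest of its 3. By lipid they were 157, 171 and 163 with luciferase siRNA and 94.5, 123 and 130 with AML1-ETO siRNA. By nucleofection they were 104 and 117 with luciferase siRNA and 71.3, 83.5 and 66.8 with AML1-ETO siRNA. All AML1-ETO arrays lay below all luciferase arrays of the same method, so that the groups did not overlap by either method. This held for 1.35% of all probe sets tested. In such bulk RNA fewer cells with the transcript and less transcript per cell cannot be told apart. Untransfected cells had signals of 135 and 144, between those of the 2 lipid groups. The nucleofection array without siRNA stood at 63.0, below every other array of the series for this probe set.

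**Figure D1:**
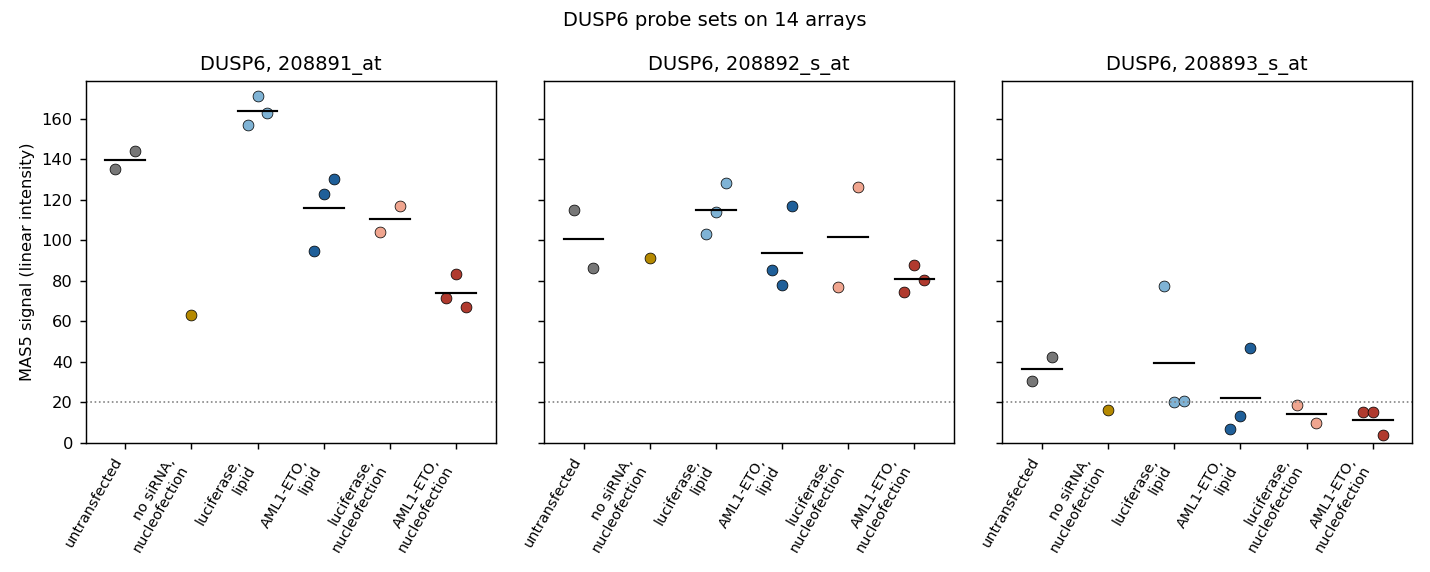
MAS5 signal (linear intensity) of the 3 DUSP6 probe sets on each of the 14 arrays, by group. Points are arrays, black lines are means of groups with over 1 array, and the dotted line is the floor of 20. In 208891_at the AML1-ETO arrays lie below the luciferase arrays of the same method and the array without siRNA, at 63.0, is the lowest. In 208892_s_at the groups overlap, and 208893_s_at lies below 20 on 9 of 14 arrays.

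For testing, any signal under 20 was set to 20 before the log2 transformation. Group means over all 14 arrays were fitted with limma to the 13329 probe sets with the highest means, and p-values were adjusted over all of these by the Benjamini-Hochberg method. As the mean of both methods DUSP6 fell by 0.55 on the log2 scale (SE 0.12, 95% interval −0.81 to −0.29, limma adjusted p = 0.0436), a change of −31.6%. It was the only member called of the 12 tested probe sets, where 1.24% of all probe sets were called. An additional probe set, of DUSP5, had an unadjusted p below 0.05, as did 13.5% of all probe sets. The median of all probe sets was −0.07. Its difference was −0.51 (SE 0.16) by lipid and −0.59 (SE 0.18) by nucleofection. Within each method alone it did not pass (limma adjusted p = 0.638 and 0.112). The log2 difference by lipid minus that by nucleofection was 0.07, with a 95% interval from −0.44 to 0.59 (limma adjusted p = 0.954).

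The DUSP6 call lay close to the threshold. Of 14 fits that left out 1 array, 3 kept it, those without AML1-ETO lipid replicate 3, AML1-ETO nucleofection replicate 2 or the array without siRNA. Without any other array the adjusted p lay between 0.0625 and 0.166, while the log2 difference stayed between −0.59 and −0.48. Fitted on the 11 siRNA arrays alone the adjusted p was 0.0626. A further setting took the untransfected cells and the array without siRNA as controls too, with the same weight for each control group. The difference was then −0.29 (limma adjusted p = 0.299). By nucleofection it was −0.18, where the 1 array without siRNA counted as much as the 2 luciferase arrays together, and untransfected cells did not enter. With the GAPDH ratio of RNA quality, described with the delivery methods, as a covariate it was −0.75 (limma adjusted p = 0.109).

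**Figure D2:**
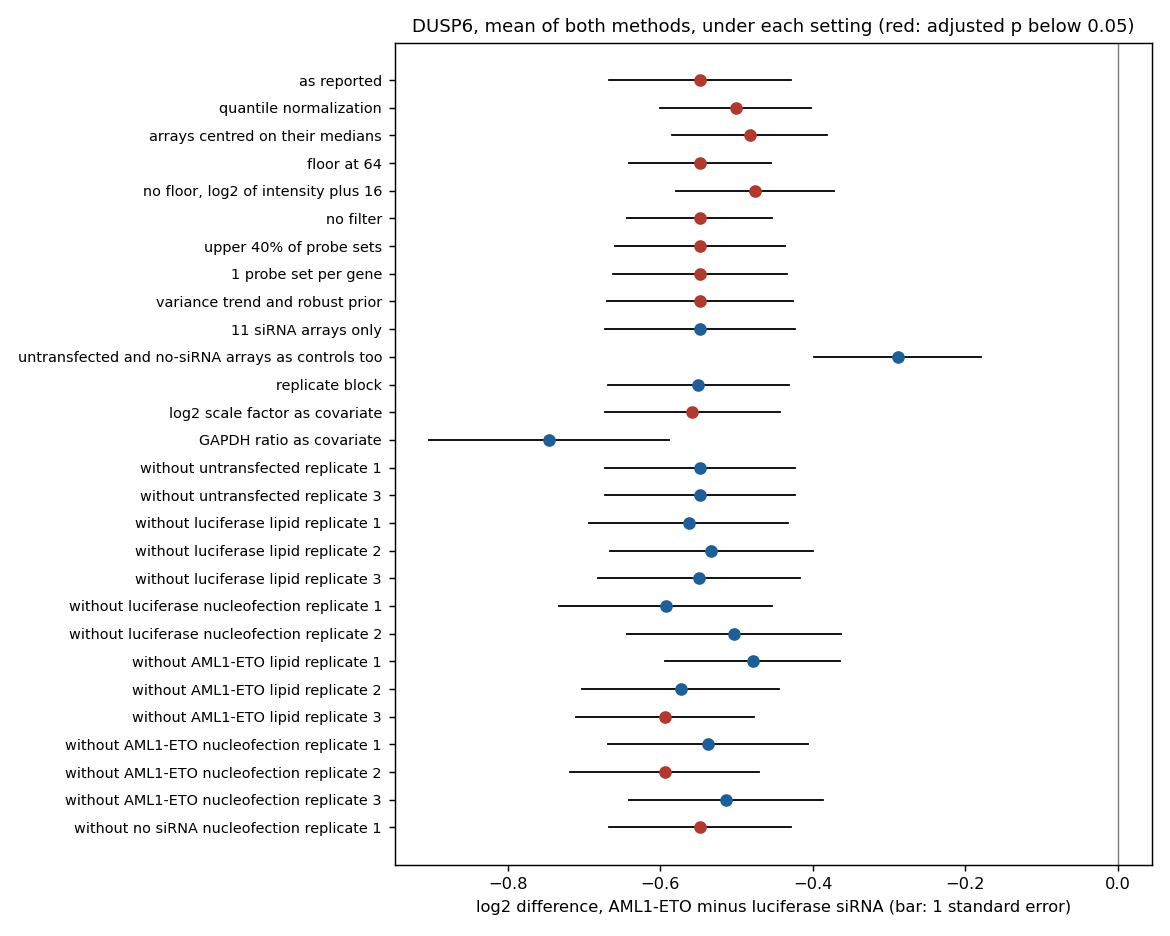
Log2 difference of DUSP6 (208891_at) between AML1-ETO and luciferase siRNA, averaged over the methods, as reported and under each of 27 other settings. Points are estimates, bars are 1 standard error, and red marks an adjusted p below 0.05. All estimates lie below 0, between −0.75 and −0.29, and 12 of the 27 are called.

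The other DUSP6 probe sets did not pass. Probe set 208892_s_at had signals of 103, 114 and 128 with luciferase and 85.5, 77.9 and 117 with AML1-ETO siRNA by lipid. By nucleofection they were 76.8 and 126, and 74.6, 87.7 and 80.1, so that the groups overlapped by both methods. Its difference was −0.30 (SE 0.16, limma adjusted p = 0.432), within the interval of the first probe set. The array without siRNA, lowest in 208891_at, stood at 91.1 here, inside the range of the other arrays. Probe set 208893_s_at was below 20 on 9 arrays, among them all 5 siRNA nucleofection arrays, and had a highest signal of 77.3. Its difference was −0.13 (SE 0.33, limma adjusted p = 0.897), and by nucleofection no fold can be given.

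DUSP5 encodes an ERK phosphatase of the nucleus and is itself induced by ERK. By nucleofection its signals were 60.9 and 62.9 with luciferase siRNA and 29.3, 40.2 and 44.0 with AML1-ETO siRNA. The groups did not overlap, which held for 22.9% of all probe sets in this direction. The difference was −0.73 (SE 0.22, 95% interval −1.21 to −0.26, unadjusted p = 0.00528) and did not pass (limma adjusted p = 0.11), where 2.1% of all probe sets were called. By lipid the signals were 63.1, 57.9 and 49.9 with luciferase and 42.8, 58.1 and 56.4 with AML1-ETO siRNA. These groups overlapped, with a difference of −0.13 (SE 0.20, limma adjusted p = 1). The difference between the methods was 0.60 (SE 0.29, limma adjusted p = 0.497). As the mean of both methods DUSP5 was at −0.43 (SE 0.15, unadjusted p = 0.0118, limma adjusted p = 0.22). Untransfected cells, at 39.4 and 52.8, and the array without siRNA, at 48.6, lay between the nucleofection groups or inside the range of the AML1-ETO arrays.

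DUSP1, a nuclear phosphatase of the stress kinases and ERK that is induced within minutes of stimulation, was measured above 20 by 1 of its 2 probe sets. The signals of 201041_s_at were 59.5, 46.3 and 44.2 with luciferase and 40.4, 47.5 and 51.8 with AML1-ETO siRNA by lipid. By nucleofection they were 38.3 and 78.0, and 40.8, 48.5 and 28.7. The luciferase nucleofection arrays were the furthest apart of any group, and the groups overlapped by both methods. The difference was −0.30 (SE 0.20, limma adjusted p = 0.518). Probe set 201044_x_at had signals of at most 6.48 and was not tested.

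DUSP4, a nuclear phosphatase of ERK closely related to DUSP1, was dim. Its brighter probe set, 204014_at, ranged from 13.6 to 39.6 with a median of 21.9, and was at −0.33 (SE 0.17, limma adjusted p = 0.423). By lipid the arrays were 22.4, 28.0 and 26.2 with luciferase and 19.3, 21.2 and 20.0 with AML1-ETO siRNA, without overlap, which held for 5.56% of all probe sets in this direction. Its other probe set, below 20 on 9 of 14 arrays, did not pass the filter. DUSP2, a nuclear phosphatase of blood cells, lay below 20 on 5 arrays and ranged from 4.82 to 62.4. Its difference was 0.05 (SE 0.27), with a 95% interval from −0.54 to 0.64 (limma adjusted p = 0.948). The 95% intervals of DUSP1 (−0.72 to 0.12) and DUSP4 (−0.69 to 0.04) include the difference found for DUSP6. Without luciferase nucleofection replicate 1 the mean difference of both methods was −0.56 for DUSP1 and −0.11 for DUSP4, and without replicate 2 it was −0.05 and −0.55.

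The Sprouty genes did not pass. SPRY2 encodes an inhibitor of receptor tyrosine kinase signalling to RAS. Its signals by lipid were 99.4, 86.8 and 80.6 with luciferase and 65.4, 59.1 and 82.4 with AML1-ETO siRNA. By nucleofection they were 60.1 and 83.8, and 55.9, 55.1 and 106. By lipid 2 of the 3 AML1-ETO arrays lay below the luciferase arrays, and by nucleofection the highest and the lowest arrays were both of AML1-ETO siRNA. The difference was −0.38 (SE 0.25) by lipid and −0.04 (SE 0.28) by nucleofection, and −0.21 (SE 0.19, limma adjusted p = 0.661) as the mean of both. The mean was −0.33 without luciferase nucleofection replicate 1, −0.09 without replicate 2 and −0.37 without AML1-ETO nucleofection replicate 3. Without replicate 1 or 2 of AML1-ETO nucleofection it was −0.13.

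SPRY1, its close relative, had signals of 57.1, 70.8 and 58.8 with luciferase and 28.7, 71.9 and 67.0 with AML1-ETO siRNA by lipid. The lowest of these, replicate 1, was the lowest SPRY1 array of the series. By nucleofection the arrays were 75.9 and 70.4, and 71.5, 65.2 and 68.1, and the groups overlapped. The difference was −0.18 (SE 0.21, limma adjusted p = 0.75), and without AML1-ETO lipid replicate 1 it was 0.03. Untransfected cells had lower signals, 57.9 and 41.5, and the array without siRNA had 75.7. AML1-ETO nucleofection was at 0.48 (SE 0.32) relative to untransfected cells and did not pass (limma adjusted p = 0.392).

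**Figure D3:**
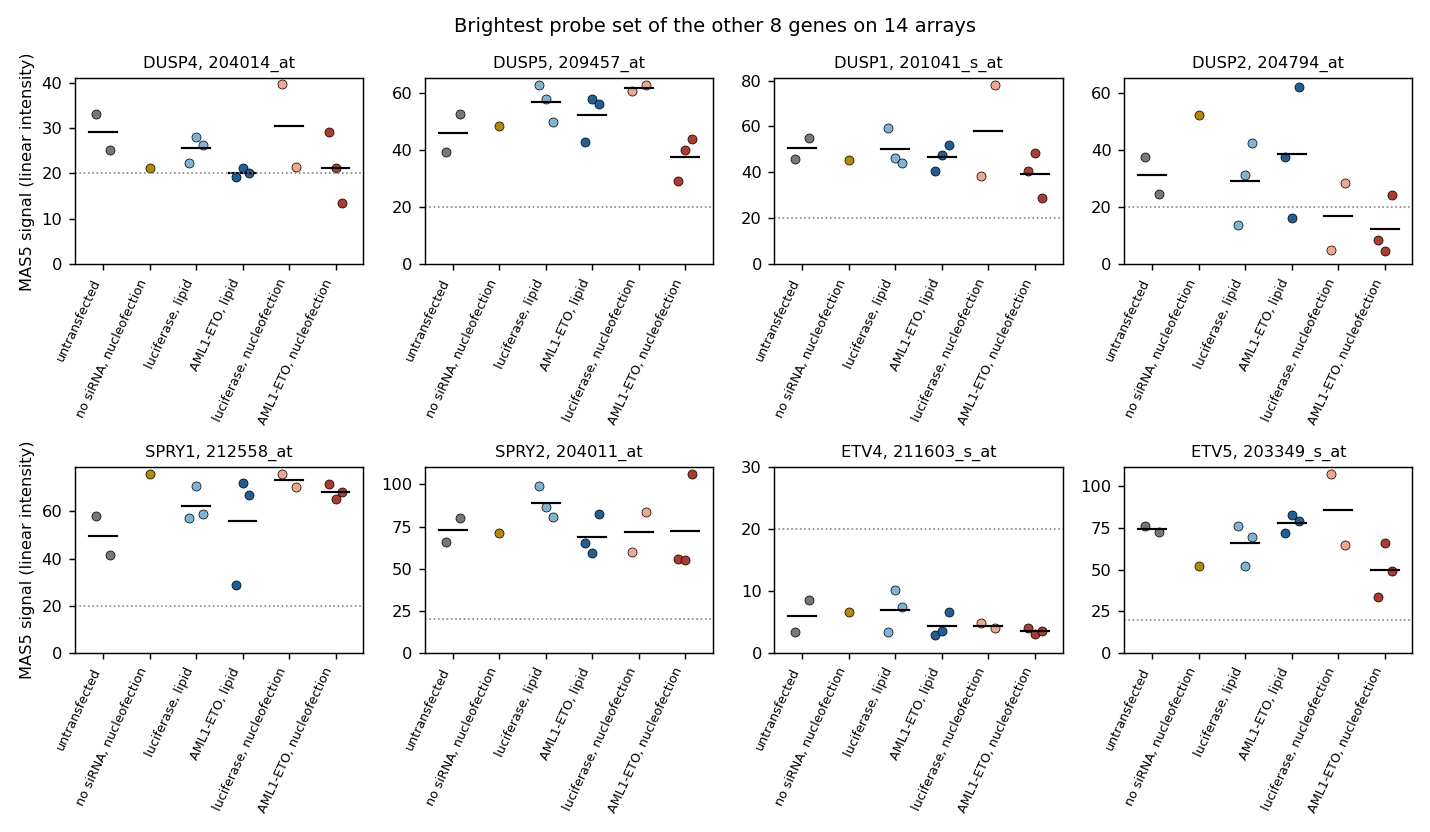
MAS5 signal (linear intensity) of the brightest probe set of DUSP4, DUSP5, DUSP1, DUSP2, SPRY1, SPRY2, ETV4 and ETV5 on each of the 14 arrays, by group. Points are arrays, black lines are group means, the dotted line is the floor of 20, and each panel has its own scale. DUSP5 by nucleofection separates the siRNAs (60.9 and 62.9 against 29.3 to 44.0), as do 22.9% of all probe sets in this direction, and did not pass. All 14 ETV4 arrays lie under the floor.

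Of the ETS factor genes, ETV4 had signals from 2.97 to 10.2 in its only probe set, below 20 on all 14 arrays, and was not tested. ETV5 was measured by 3 probe sets. In the brightest, 203349_s_at, the nucleofection arrays were 107 and 64.6 with luciferase and 33.7, 66.0 and 49.0 with AML1-ETO siRNA. The lipid arrays were 75.9, 52.1 and 69.4 with luciferase and 71.6, 82.6 and 79.3 with AML1-ETO siRNA. The groups overlapped by both methods. The difference was −0.80 (SE 0.28, limma adjusted p = 0.159) by nucleofection and 0.26 (SE 0.25, limma adjusted p = 1) by lipid. The opposite signs differed by 1.06 (SE 0.37, unadjusted p = 0.0141), which did not pass (limma adjusted p = 0.34), where 0.0525% of all probe sets were called and 10.6% had an unadjusted p below 0.05. The mean of both methods was −0.27 (SE 0.19, limma adjusted p = 0.555). By nucleofection the difference was −0.44 without luciferase replicate 1 and −1.17 without replicate 2, and the mean was then −0.09 and −0.46. Without AML1-ETO nucleofection replicate 1 the mean was −0.15. With the GAPDH ratio as a covariate the nucleofection difference was −0.19 (limma adjusted p = 0.865).

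The other ETV5 probe sets were dimmer and did not share this pattern throughout. Probe set 203348_s_at, with a median of 25.6, was at 0.50 (SE 0.25) by lipid and −0.21 (SE 0.28) by nucleofection. Probe set 216375_s_at, with a median of 36.5, was at −0.43 (SE 0.35) by lipid and −0.21 (SE 0.40) by nucleofection. Neither passed in either method.

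Across the 12 tested probe sets the difference as the mean of both methods lay below 0 in 10, with a median of −0.29. Over all 13329 probe sets it lay below 0 in 63.5%, with a median of −0.07. By lipid 9 of the 12 lay below 0, against 57.8% of all probe sets, and 0 were called, with 1 at an unadjusted p below 0.05, where 0.0675% of all probe sets were called and 4.86% had such a p. By nucleofection 11 lay below 0, against 61% of all probe sets, and the remaining one was under the floor on all 5 arrays. Of the 12, 0 were called, where 2.1% of all probe sets were, and 3 had an unadjusted p below 0.05, against 17.5%. Several of the 12 measure the same gene, and those with names in _s_at may also pick up similar transcripts.

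**Figure D4:**
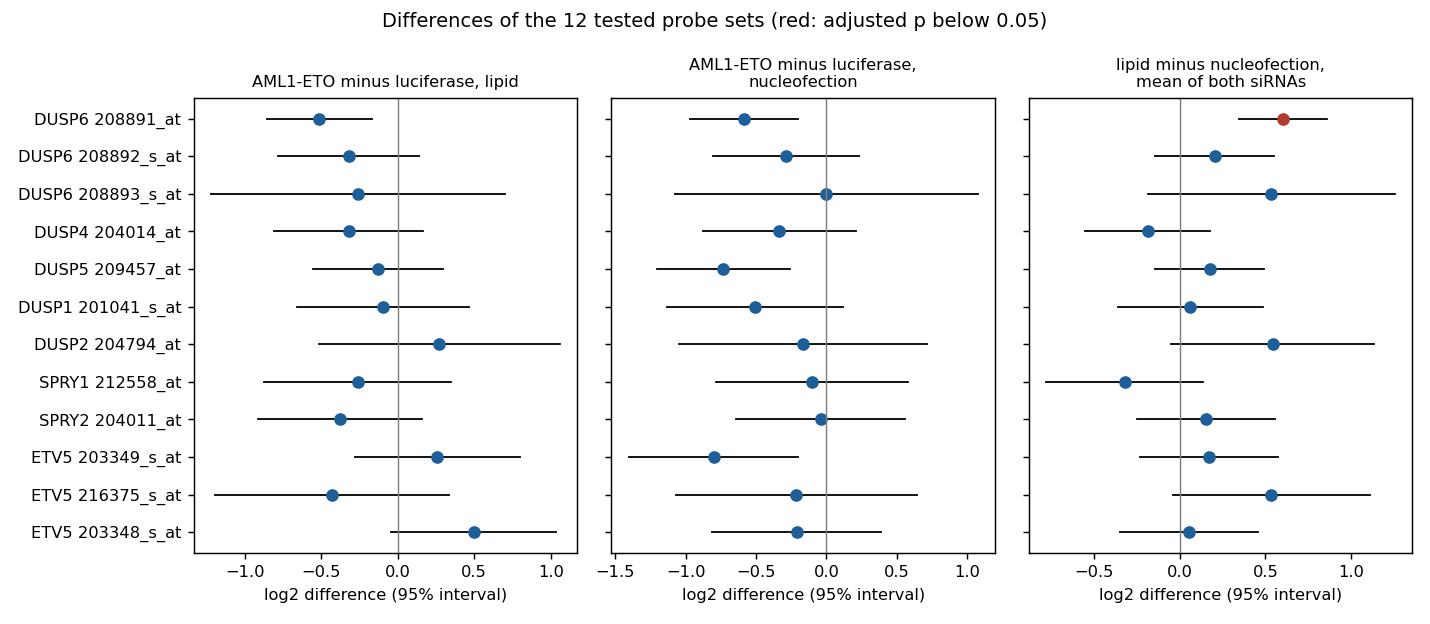
Log2 differences of the 12 tested probe sets for AML1-ETO minus luciferase siRNA by lipid, the same by nucleofection, and lipid minus nucleofection. Points are limma estimates, bars are 95% intervals, and red marks an adjusted p below 0.05. DUSP6 (208891_at), at 0.60 in the third panel, is the only red point.

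The other genes of the pathway were read from lists. Of 23 further ERK targets 19 were tested, and 1 fell and 0 rose as the mean of both methods, where 0.383% of all probe sets fell and 0.855% rose, with a list median of −0.23 against −0.07 for all probe sets. The gene that fell was CXCL8, a chemokine, at −1.31 (SE 0.18, limma adjusted p = 0.00214), with −2.32 by nucleofection and −0.30 by lipid. Its AML1-ETO nucleofection arrays lay between 126 and 228, below the other arrays of the series, which lay between 589 and 993. SLC20A1, a phosphate transporter, had the next smallest p at −0.52 (SE 0.12, limma adjusted p = 0.0505). By nucleofection SLC20A1 fell by 0.79 (SE 0.17, limma adjusted p = 0.0389) and CXCL8 fell too, 2 of the 19, where 0.81% of all probe sets fell and 1.29% rose. The immediate early genes EGR1, at −0.56 (SE 0.19, limma adjusted p = 0.213), and IER2, at −0.38 (SE 0.15, limma adjusted p = 0.293), did not pass. EGR1 signals by nucleofection were 47.1 ± 1.42 (SD, n = 2) with luciferase and 25.6 ± 7.34 (SD, n = 3) with AML1-ETO siRNA, and 27.3 without siRNA.

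Of 15 further phosphatase genes that act on MAP kinases or share their fold, 10 were tested and 0 were called in the mean of both methods, where 1.24% of all probe sets were called. The list median was −0.19 against −0.07 for all probe sets. DUSP9, another cytoplasmic ERK phosphatase, had the smallest p at −0.56 (SE 0.14, limma adjusted p = 0.0811). Its nucleofection signals were 90.7 ± 13.7 (SD, n = 2) with luciferase and 52.8 ± 10.7 (SD, n = 3) with AML1-ETO siRNA, and the array without siRNA stood at 44.3. DUSP14 was at −0.28, DUSP12 at −0.34 and DUSP10 at −0.27, and these did not pass.

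Of 31 genes of the cascade from adaptor proteins to ERK and its substrates, 22 were tested, and 1 rose and 0 fell, where 0.855% of all probe sets rose and 0.383% fell. The list median was −0.05 against −0.07 for all probe sets. RASGRP2, an exchange factor for RAP and RAS GTPases, rose by 1.19 (SE 0.18, limma adjusted p = 0.00332). Its signals by lipid ranged from 53.0 to 66.7 with luciferase and from 58.2 to 88.2 with AML1-ETO siRNA. By nucleofection they were 4.43 and 36.8 with luciferase siRNA and ranged from 95.2 to 132 with AML1-ETO siRNA. The luciferase nucleofection arrays lay below the untransfected ones, at 58.7 and 70.4, as did the array without siRNA at 18.8. With a floor of 64 in place of 20 the difference was 0.51 and still called. HRAS at −0.43, PTPN11, a phosphatase that relays receptor signals to RAS, at −0.37, and PEBP1, an inhibitor of RAF, at −0.32 did not pass. Of 10 growth factor receptors 8 were tested and 0 were called, where 1.24% of all probe sets were, and the list median was 0.14 against −0.07. CSF1R, the receptor of macrophage colony-stimulating factor, had the smallest p at 0.69 (SE 0.23, limma adjusted p = 0.202). FLT3 was at −0.26, CSF2RB at −0.16 and CSF3R at 0.19.

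The delivery methods were compared next, with the siRNAs averaged, over 6 lipid and 5 nucleofection arrays. DUSP6 (208891_at) was higher by lipid by 0.60 (SE 0.12, 95% interval 0.35 to 0.86, limma adjusted p = 0.00415), a change of 52.0%. It was the 1 member called, where 22.6% of all probe sets were called, 79.6% of them higher by lipid, and the median of all probe sets was 0.14. With arrays quantile normalized, which brought that median to 0.01 and the share higher to 53.6%, DUSP6 was at 0.41 (limma adjusted p = 0.0181). With each array's median set equal, 50.5% were higher by lipid and DUSP6 was at 0.46 (limma adjusted p = 0.00993). Within each siRNA every lipid array lay above every nucleofection array, as for 13.7% of all probe sets in this direction. The other DUSP6 probe sets were at 0.21 (SE 0.16, limma adjusted p = 0.379) and 0.54 (SE 0.33, limma adjusted p = 0.267).

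The log2 ratio of the 3′ to the 5′ control probe set of GAPDH, which reflects how intact the RNA or labelled target is, also moved with the method. It lay between −0.38 and −0.17 on the lipid arrays and between −0.18 and 0.25 on the nucleofection arrays (exact permutation p = 0.00433, two-sided, 6 against 5 arrays, smallest possible 0.00216). The ratio of the 3′ to the middle GAPDH probe set did not pass, with a difference of −0.10 and ranges of −0.30 to −0.04 and −0.17 to 0.00 that overlapped (exact permutation p = 0.0909, 6 against 5 arrays). With the 3′ to 5′ ratio as a covariate DUSP6 was at 0.22 (SE 0.25, limma adjusted p = 0.784), where the SE without it was 0.12. In that fit 5 of all probe sets were called in place of 3007. The ranges of the ratio by method barely overlapped, so this fit cannot tell the ratio and the method apart. With the array scale factor as a covariate DUSP6 was at 0.54 (limma adjusted p = 0.0538). The summed signal of 8 markers of cells outside the blood lay between 389 and 441 on the lipid arrays and between 252 and 308 on the nucleofection arrays with siRNA, and 4 of the 8 had medians below 20. The part of these measures in the DUSP6 difference was not tested further. Between the siRNAs, over both methods, the 3′ to 5′ GAPDH ratio differed by −0.10 (exact permutation p = 0.405, 6 against 5 arrays). Within nucleofection it was 0.25 and 0.03 with luciferase and −0.18, −0.13 and −0.11 with AML1-ETO siRNA, so that the groups did not overlap, while by lipid they did. With the ratio as a covariate the knockdown difference by nucleofection was −0.98 for DUSP6 (limma adjusted p = 0.22) and −0.88 for DUSP5 (limma adjusted p = 0.352).

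Among the brightest probe sets of the other members, DUSP2 at 0.54 (SE 0.27, limma adjusted p = 0.17) and SPRY1 at −0.32 (SE 0.21, limma adjusted p = 0.298) differed most between the methods and did not pass. Without AML1-ETO lipid replicate 2, DUSP2 was called as well. DUSP4 was at −0.19, DUSP5 at 0.18, SPRY2 at 0.15, ETV5 at 0.17 and DUSP1 at 0.06. Of all probe sets 18% were higher and 4.59% lower by lipid. Of the further ERK targets 4 of 19 were higher by lipid, CXCL8 by 1.12, HMGA2, a chromatin protein, by 0.72, SPRED2, a Sprouty-related inhibitor of RAS signalling, by 0.66, and PLAUR, the urokinase receptor, by 0.50 (HMGA2 and PLAUR were named after their values were seen). Of the further phosphatases DUSP22 was higher by lipid by 0.38 (SE 0.12, limma adjusted p = 0.043) and DUSP7, a cytoplasmic ERK phosphatase, was lower, at −0.43 (SE 0.13, limma adjusted p = 0.0276). In the cascade PTPN11, by 0.46, and ARAF, by 0.38, were higher by lipid. Of the receptors CSF3R was higher by 1.45 and CSF2RB by 0.48.

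Untransfected cells served as a further reference for each siRNA group. With AML1-ETO siRNA by nucleofection DUSP6 (208891_at) was lower than in untransfected cells by a log2 difference of −0.92 (SE 0.18, 95% interval −1.31 to −0.54, limma adjusted p = 0.0106), a change of −47.2%. It was the 1 member called, where 6.26% of all probe sets were called and 23.2% had an unadjusted p below 0.05. All 3 arrays lay below both untransfected ones, as for 29.2% of all probe sets in this direction. The 1 array nucleofected without siRNA, at 63, lay below all 3 as well. In this comparison the siRNA and nucleofection itself changed together and cannot be told apart. The median of all probe sets was −0.12. With quantile normalization, which brought that median to −0.01, DUSP6 was at −0.75 (limma adjusted p = 0.0148). Without untransfected replicate 1 or 3 the adjusted p was 0.0797 and 0.0869, with the scale factor as a covariate it was 0.0511, and in a fit of these 5 arrays alone it was 0.0673. ETV5 (203349_s_at) was at −0.64 (SE 0.28, unadjusted p = 0.0393) and did not pass (limma adjusted p = 0.191).

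With AML1-ETO siRNA by lipid DUSP6 was at −0.28 (SE 0.18, limma adjusted p = 1) relative to untransfected cells. With luciferase siRNA it was at 0.23 (SE 0.18, limma adjusted p = 1) by lipid and −0.34 (SE 0.20, limma adjusted p = 0.333) by nucleofection. In these 3 comparisons 0 of the 12 member probe sets were called, and 0 had an unadjusted p below 0.05. Of all probe sets 0.0675%, 0.0075% and 4.88% were called, in the same order, and 5.65%, 3.65% and 22.3% had such a p. The order of DUSP6 means was luciferase lipid (164 ± 6.81, SD, n = 3), untransfected (135 and 144), AML1-ETO lipid (116 ± 18.7, SD, n = 3), luciferase nucleofection (111 ± 9.77, SD, n = 2), AML1-ETO nucleofection (73.9 ± 8.65, SD, n = 3) and the array without siRNA (63.0). The signals of AML1-ETO lipid and luciferase nucleofection overlapped. Comparisons with untransfected cells share those 2 arrays, and the luciferase arrays also enter the knockdown differences.

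Over the 14 arrays the genes whose log2 signal followed DUSP6 (208891_at) most closely, among 8122 genes with 1 symbol, were TIMM17B, a subunit of mitochondrial protein import, with a Pearson's r of 0.94, and the ubiquitin ligase gene SIAH2, with 0.93. POLR2A, the largest subunit of RNA polymerase II, had 0.93, ATN1, a transcriptional corepressor, 0.92, and SERPINA1, a protease inhibitor, 0.91. The closest of the other member probe sets was DUSP6 208892_s_at at 0.63, then DUSP5 at 0.56, DUSP1 at 0.49 and ETV5 203349_s_at at 0.49. SPRY2 stood at 0.31, DUSP4 at 0.23, DUSP2 at 0.09 and SPRY1 at −0.17. These values describe arrays that share their groups, their scaling and their delivery method.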

How the data were processed

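The authors deposited 1 intensity per probe set and array on a linear scale, made with MAS5 per the submitters' processing notes. Its version was not given in the sources used here. Array means were all 138.5, which follows from the scale factor named in the labels, and a change common to most genes would not show. The 14 arrays held replicates 1 and 3 of untransfected cells and replicates 1 and 2 of luciferase nucleofection. No array in the values was left unused.

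Symbols came from the platform annotation. Of 22283 probe sets 19065 had 1 symbol, 1043 several, 2107 none, and 68 were controls. Updating symbols through gene identifiers changed 0. Log2 was taken of intensities with a floor of 20, which understates differences of dim genes. The upper 60% of probe sets by mean, 13329 with a mean of at least 22.5, were tested in R 4.3.3 with limma 3.58.1 (lmFit and eBayes, 6 group means, 8 residual and 5.05 prior degrees of freedom). Calls were made at an adjusted p below 0.05. A gene is represented by its brightest probe set. Figures were drawn in Python 3.11.15 with matplotlib 3.10.9. On simulated data for the mean of both methods, over 13329 probe sets, 19% of log2 changes of 0.5 and 91% of changes of 1 were recovered. Of the calls 5.98% were false. The simulated noise was normal and independent between probe sets, with no floor and no effect of delivery. These rates need not hold for the real arrays. The number of arrays limits the precision.

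The members and lists were chosen with earlier results of these data known. Named were all member probe sets and RUNX1T1 as a check, up to 4 genes of each list by smallest p for the mean knockdown effect and up to 2 for lipid against nucleofection, and the 5 genes most like DUSP6. Alternatives changed the scaling, floor, filter, features, variance model, arrays, controls, covariates and single arrays.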

Additional observations from a re-analysis of the deposited data

How the results depend on the processing

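Values of single genes and of the GAPDH ratio were compared under alternatives other than leaving out an array. Of these 514 values 481 kept their direction and their side of the threshold, and 22 changed sign, none of which was called. The cause was not tested for any of them. The number of members called for the mean knockdown effect fell from 1 to 0 with the 11 siRNA arrays alone, with further controls, with the GAPDH ratio as a covariate and with the replicate block, and lay between 0 and 1 when single arrays were left out. With the replicate block DUSP6 was at −0.55 (limma adjusted p = 0.0706). Nothing in the labels says that a replicate number is shared by a culture or a day, so the numbers were not taken to pair arrays. In their deviations from the group means same-numbered arrays correlated at 0.04, −0.08 and 0.06 by lipid and at −0.00 and 0.02 by nucleofection. Not every array correlated best with its own number. Deviations within a group sum to 0, and those of the 2 luciferase nucleofection arrays mirror each other, so these correlations cannot decide whether arrays were paired. For lipid against nucleofection the number called fell to 0 with the scale factor or the GAPDH ratio as a covariate and lay between 1 and 2 in leave-outs. For AML1-ETO nucleofection against untransfected cells it fell to 0 with only the compared arrays or the scale factor and lay between 0 and 1 in leave-outs. With a floor of 64 it rose from 0 to 1 for the knockdown by nucleofection. Values that changed sign are given on the log2 scale. For the knockdown by nucleofection SPRY2 was at 0.036 with quantile normalization, 0.035 with centred arrays and 0.049 with a floor of 64, and DUSP4 at 0.082 with the GAPDH ratio. For lipid against nucleofection DUSP1 was at −0.024 with quantile normalization, −0.084 with centred arrays, −0.072 with a floor of 64 and −0.841 with the GAPDH ratio. SPRY2 was at −0.008 with quantile normalization and −0.193 with the GAPDH ratio, DUSP2 at −0.015 with the scale factor and −0.183 with the GAPDH ratio, and DUSP4 at 0.221 with the GAPDH ratio. For the mean knockdown effect DUSP2 was at −0.238 with further controls, −0.027 with the replicate block, −0.03 with the scale factor and −0.317 with the GAPDH ratio, and ETV5 at 0.033 with the GAPDH ratio. By lipid SPRY1 was at 0.029 with a floor of 64 and DUSP5 at 0.03 with further controls. The method difference of DUSP6 was −0.216 with further controls, and DUSP6 in luciferase nucleofection against untransfected cells was at 0.147 with the GAPDH ratio. In leave-outs the mean knockdown effect ranged from −0.144 to 0.266 for DUSP2 and from −0.299 to 0.032 for SPRY1. By lipid it ranged from −0.219 to 0.012 for DUSP5, −0.181 to 0.034 for DUSP1, −0.123 to 0.698 for DUSP2 and −0.498 to 0.164 for SPRY1. By nucleofection it ranged from −0.778 to 0.11 for DUSP4, −1.021 to 0.006 for DUSP1, −0.422 to 0.092 for DUSP2 and −0.355 to 0.198 for SPRY2. The method difference of DUSP6 ranged from −0.018 to 0.212. For lipid against nucleofection the ranges were −0.408 to 0.036 for DUSP4, −0.194 to 0.32 for DUSP1 and −0.013 to 0.355 for ETV5. CXCL8 and RASGRP2 were put through the same alternatives after their values were seen. CXCL8 was at −1.36 (SE 0.27) with the GAPDH ratio and no longer passed (limma adjusted p = 0.0875), and RASGRP2 stayed called under all 27. Ranges of counts over all probe sets are first given for alternatives other than leaving out an array. For the mean knockdown effect 165 were called, between 32 with the GAPDH ratio and 267 without a filter, and 69.1% of the calls were higher (79.7% with quantile normalization and 80.7% with centred arrays). By nucleofection 280 were called, between 17 with the GAPDH ratio and 520 with quantile normalization, and 61.4% were higher (71% and 75.1%). By lipid 9 were called, between 0 and 17, and for the method difference 7, between 0 and 59. For lipid against nucleofection 3007 were called, between 5 and 3427. Against untransfected cells the counts were 1 for luciferase lipid (0 to 2), 650 for luciferase nucleofection (0 to 990), 9 for AML1-ETO lipid (0 to 18) and 835 for AML1-ETO nucleofection (158 to 1314, with 26.6% higher, 50% with quantile normalization and 42.9% with centred arrays). With single arrays left out the counts were 99 to 165 for the mean knockdown effect, 4 to 12 by lipid, 131 to 316 by nucleofection, 1 to 16 for the method difference and 1988 to 3004 for lipid against nucleofection. Against untransfected cells, in the order above, they were 0 to 3, 34 to 783, 0 to 15 and 146 to 1029. Signals near the floor limit DUSP2, DUSP4 and the dimmer ETV5 and DUSP6 probe sets.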
